A study of Mus musculus with 6 samples.

Results

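The levels of 9 genes of epithelial salt, chloride and guanylin handling were measured in ileum, the final stretch of the mouse small intestine. They were chosen by name from the gene symbols of the deposited data, with earlier results of these data known. All were found there, 9 of 21950 symbols listed for both genotypes. The wild type group held 3 mice and the TLR4ΔIEC group held 3 mice, all of strain C57BL/6 and 24 weeks of age. TLR4ΔIEC mice lack Toll-like receptor 4 (Tlr4), the receptor for bacterial lipopolysaccharide, in intestinal epithelial cells by conditional deletion, while other cells keep the gene. The promoter that drives the deletion is not given in the sources used here, and no other allele or treatment is given for either group. Whole ileum RNA, depleted of ribosomal RNA, was sequenced with 1 barcoded library per mouse.

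Each genotype is represented by 1 pooled column of average coverage, the mean number of reads over each base of a transcript. There is thus 1 value per genotype and gene, no spread between mice, no test and no p-value, and every difference below is one between 2 pooled columns. The design text says that each genotype went into its own sequencing pool, so genotype and pool cannot be told apart. Both columns were put on 1 scale and to a mean total of 1000000, and these scaled values are called units. Because coverage is an average per base, levels can be compared roughly between genes. Such comparisons are not exact, since some averages rest on different lengths and the assignment of reads that fit several genes is not given. Ratios were taken as log2 of TLR4ΔIEC over wild type after 1 unit was added to both, which understates differences of weakly covered genes. In each pair of values the wild type column comes first.

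The intestine absorbs salt by pairing a sodium/proton exchanger with chloride/bicarbonate exchangers in the brush border, and secretes chloride, with water following, mainly from crypts. The sodium pump in the basolateral membrane keeps up the sodium gradient on which both directions run. Guanylin and uroguanylin are short peptides released into the gut lumen, where they bind guanylate cyclase C on the brush border. The cyclic GMP this makes opens the chloride channel CFTR and restrains sodium/proton exchange, so the peptides tip the balance from absorption to secretion.

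The columns differed most for Clca6, next for the uroguanylin gene Guca2b, and then for the anion exchanger Slc26a6. All of these were lower in the TLR4ΔIEC column, by 3.79-fold, 1.82-fold and 1.61-fold. The chloride secretion genes Cftr and Slc12a2 were 1.43-fold and 1.32-fold higher, and the remaining genes, Slc9a3, Slc26a3, Atp1b1 and Guca2a, differed by at most 1.27-fold. Of the 9 genes, 8 had a mean of at least 5 units, the level above which genes were counted. Slc9a3 lay below it, at a mean of 4.08 units. Of these 8, 1 was at least 2-fold lower, against 2.79% of the 8891 genes at that level. None of the 8 (0) was 2-fold higher, against 1.29% of genes. At 1.5-fold, a size added after the values were seen, 3 of the 8 were lower and 0 higher, against 10.2% and 6.57% of genes. The 9 genes and the lists below were chosen with earlier results of these data known. Set beside them, the shares of all genes are therefore not a neutral comparison. The median log2 ratio of the 8 was 0.05, against 0.03 for all 8891 genes. Among all genes past 2-fold in either direction, 31.7% were on the higher side, or 44.9% if the 50 strongest genes are left out of the totals used for scaling.

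**Figure D1:**
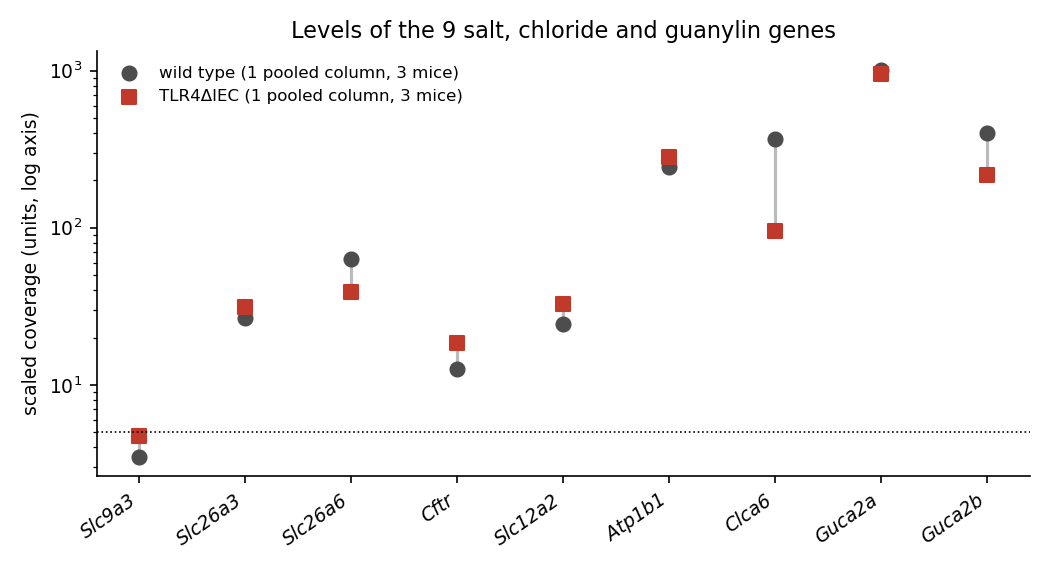
Scaled coverage (units, log axis) of the 9 genes in the wild type column (circles) and the TLR4ΔIEC column (squares), each 1 pooled value of 3 mice; the dotted line is at 5 units. Clca6 had the widest gap, from 365 to 95.4 units, and Slc9a3 was the weakest gene in both columns.

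The genes spanned a wide range of levels. In wild type the order from the top was Guca2a, Guca2b, Clca6, Atp1b1, Slc26a6, Slc26a3, Slc12a2, Cftr and Slc9a3. In TLR4ΔIEC, Atp1b1 stood above both Guca2b and Clca6, and Slc12a2 stood just above Slc26a3. With 1 value per column, it cannot be said which neighbours in these orders differ beyond the spread between mice. By mean level, Guca2a was gene number 132 of all 21950, whereas Slc9a3 was number 9636.

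Salt absorption comes first. Slc9a3 (chromosome 13, 74121457 to 74169442, plus strand, mm10, as all coordinates here) encodes NHE3, the brush border sodium/proton exchanger. Its coverage was 2.37 in the wild type column against 3.36 in the TLR4ΔIEC column, or 3.47 and 4.69 units, a log2 ratio of 0.35. The deposited averages rested on different lengths of the same transcript. The TLR4ΔIEC value fitted 8360 bases of reads over the whole 2490 bases, a multiple of the smallest length of 249. The wild type value fitted 5417 bases over 2287, a gap of 203 bases, which is the length of exon 7. If the missing bases held no reads, the wild type coverage over the whole transcript would be 2.18. Whether they held none or were left out of the average is not known. Without the added unit, the scaled log2 ratio was 0.43 from the deposited averages. Over the whole transcript it was 0.56 if the missing bases held no reads. The value of this weakly covered gene thus moved with both the added unit and the averaging.

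Slc26a3 (chromosome 12, 31390871 to 31473917, plus strand) encodes DRA, a chloride/bicarbonate exchanger of the brush border whose loss in people causes chloride-losing diarrhoea. Its coverage was 18.1 in the wild type column against 22.5 in the TLR4ΔIEC column, or 26.5 and 31.4 units, a log2 ratio of 0.24. Slc26a6 (chromosome 9, 108853283 to 108913049, plus strand) encodes PAT1, an exchanger of chloride, bicarbonate and oxalate in the brush border. Its coverage was 43.2 in the wild type column against 27.9 in the TLR4ΔIEC column, or 63.4 and 39.0 units, a log2 ratio of -0.69. Behind these values were 117817 and 76109 read bases spread over the full 2725 bases of the transcript. The 2 exchangers thus lay on opposite sides of 0. Within wild type, Slc26a6 had 2.39 times the coverage of Slc26a3, and within TLR4ΔIEC it had 1.24 times. These quotients are taken inside 1 column and do not depend on how the columns were scaled.

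Chloride secretion was represented by the entry and the exit step. Slc12a2 (chromosome 18, 57878678 to 57946821, plus strand) encodes NKCC1, the basolateral cotransporter that loads crypt cells with chloride. Its coverage was 16.6 in the wild type column against 23.3 in the TLR4ΔIEC column, or 24.4 and 32.5 units, a log2 ratio of 0.40. Cftr (chromosome 6, 18170687 to 18322768, plus strand) encodes the apical chloride and bicarbonate channel that is defective in cystic fibrosis. Its coverage was 8.55 in the wild type column against 13.1 in the TLR4ΔIEC column, or 12.5 and 18.3 units, a log2 ratio of 0.51. The Cftr averages, like those of Slc9a3, rested on different lengths. They fitted 53599 bases of reads over 6266 in wild type, a multiple of the smallest length of 482. In TLR4ΔIEC they fitted 82721 bases over 6304. Without the added unit the scaled log2 ratio was 0.55 from the deposited averages. It was 0.56 over the whole transcript if the missing wild type bases held no reads. The entry and exit genes were both above 0 and kept similar proportions, with Slc12a2 at 1.94 times Cftr in wild type and 1.77 times in TLR4ΔIEC. Neither reached 1.5-fold as scaled here, although Cftr did (log2 ratio 0.61) when the 50 strongest genes were left out of the totals used for scaling. Their log2 ratios stood above those of 85.2% and 91.0% of all genes averaging at least 5 units. An antisense gene model on the opposite strand, Gm15592, shares 129 exonic bases with Cftr, and whether counting used strand is not given in the sources used here.

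Atp1b1 (chromosome 1, 164437109 to 164458355, minus strand) encodes the beta subunit that carries the sodium pump to the membrane. Its coverage was 167 in the wild type column against 200.5 in the TLR4ΔIEC column, or 245 and 280.3 units, a log2 ratio of 0.19. Nme7 on the opposite strand shares 575 exonic bases with Atp1b1. It was covered weakly, at 1.65 units in wild type against 2.95 units in TLR4ΔIEC. Atp1b1 itself differed little between the columns, and the part of the overlap in its value was not tested.

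Clca6 (chromosome 3, 144952480 to 144975045, minus strand; now named Clca4a) belongs to the CLCA proteins, once taken for calcium-activated chloride channels and now regarded as secreted or membrane-anchored proteins that modulate such channels. Its coverage was 249 in the wild type column against 68.3 in the TLR4ΔIEC column, or 365 and 95.4 units, a log2 ratio of -1.92. The values came from 745977 and 204621 bases of reads over 2998 bases, where the annotated transcript has 3004. The ratio was number 23 from the lowest among 8891 genes, and Clca6 was the only one of the 9 genes past 2-fold. It was past 2-fold under all 12 other settings of scaling, pseudocount, filter, entry and length as well, from -1.93 to -1.76. Filter and length settings choose which genes are counted and cannot move the ratio of a gene. The settings that could move it were scaling, pseudocount and entry. Under the 5 other scalings Clca6 ranged from -1.86 to -1.76.

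**Figure D2:**
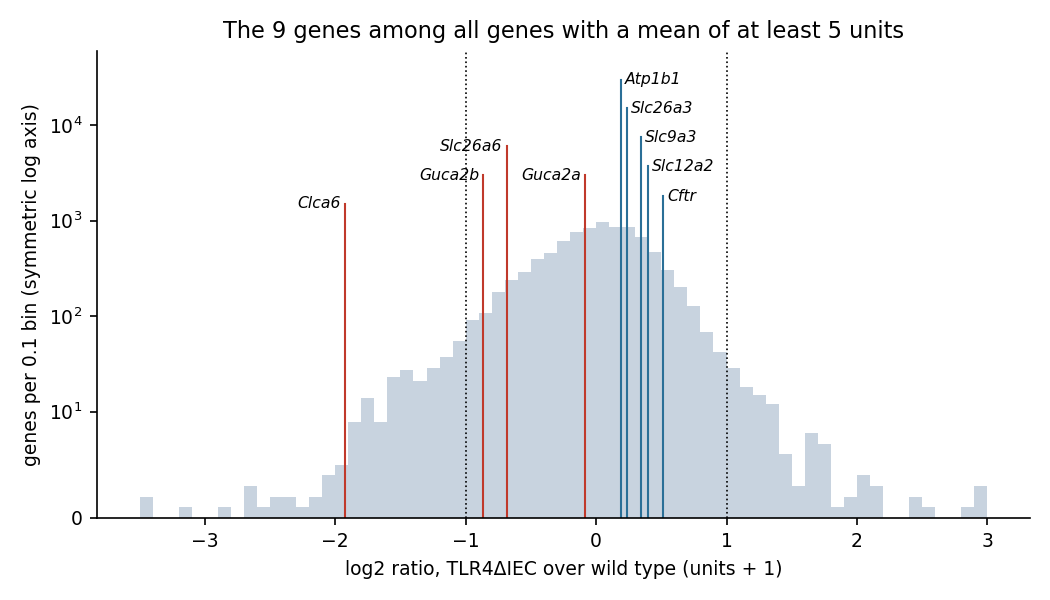
Number of genes per bin of 0.1 (symmetric log axis) against the log2 ratio of TLR4ΔIEC over wild type for all genes averaging at least 5 units; genes beyond the ends are in the end bins. Vertical lines mark the 9 genes (Slc9a3 itself lies below 5 units) and dotted lines mark 2-fold. Clca6 at -1.92 lies in the lower tail, Guca2b at -0.87 and Slc26a6 at -0.69 lie inside 2-fold, and the other 6 lie nearer to 0.

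Clca6 is part of a gene cluster on chromosome 3. Of its neighbours with at least 5 units, only AI747448 was also lower, and by less. The files use older symbols for this cluster, so each was matched through its RefSeq accession to its current name. AI747448 (now Clca4b) had 465 units in wild type against 273 units in TLR4ΔIEC, a log2 ratio of -0.77. Clca4 (now Clca3b) was the opposite of Clca6, at 61.8 and 143 units, a log2 ratio of 1.20. Clca3 (now Clca1), a goblet cell product, was at 894 and 949 units, a log2 ratio of 0.09. Within wild type, Clca6 had 5.90 times the coverage of Clca4, and within TLR4ΔIEC it had 0.665 times. Of the 5 cluster genes with at least 5 units, 1 (Clca4) was past 2-fold on the higher side and 1 (Clca6) on the lower side, and the median was 0.09.

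The cluster arose by duplication, and this touches the values of single members. Of all 50-base stretches of the Clca6 transcript, 37.1% occur also in transcripts of other genes, most often of the pseudogene Clca4c-ps. The share was 24.8% for AI747448 and 6.68% for Clca4. How the authors assigned reads that fit several copies is not given in the sources used here, so the split between Clca6 and AI747448 is uncertain. An antisense gene model, Gm16233, shares 334 exonic bases with Clca6. Of the 9 genes followed here, the 8 besides Clca6 had no 50-base stretch in common with transcripts of any other gene read in the same direction. Overlaps on the opposite strand are not part of that comparison. Atp1b1 shares 575 exonic bases with Nme7 in this way, and Cftr 129 with Gm15592.

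The guanylin peptides differed from one another. Guca2a (chromosome 4, 119637704 to 119639471, plus strand) encodes guanylin, and Guca2b (chromosome 4, 119656607 to 119658954, minus strand) encodes uroguanylin. The genes lie tail to tail, 17136 bases apart. Guca2a was the most highly covered of the 9 genes, and its coverage was 688 in the wild type column against 679 in the TLR4ΔIEC column, or 1008 and 949.6 units, a log2 ratio of -0.09. Its sign turned to above 0 under 2 of 5 other scalings, so no direction can be given. Guca2b coverage was 272 in the wild type column against 156 in the TLR4ΔIEC column, or 399 and 218 units, a log2 ratio of -0.87. It was below 0 under all 12 of those settings, from -0.87 to -0.72, and past 2-fold under 0 of them. Here too the filter and length settings could not move the ratio. Within wild type Guca2a had 2.53 times the coverage of Guca2b, and within TLR4ΔIEC it had 4.36 times.

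The promoters of this neighbouring pair are printed because their genes had unlike ratios in the same tissue. Each line gives the 250 bases before the RefSeq start of the gene, in the direction of the gene, from RefSeq on GRCm38.p6. The Guca2a window is chr4:119637482-119637731 on the plus strand and the Guca2b window is chr4:119658946-119659195 on the minus strand. Capitals mark matches on either strand to 6 motifs. GATAAG is read by zinc finger factors named after it, GTTAAT is part of the HNF1 motif, CAAAGTCCA is read by HNF4, TTTATGG by CDX2 and GGGCGG by SP1, while TATAAA is the classical core promoter box.
Guca2a: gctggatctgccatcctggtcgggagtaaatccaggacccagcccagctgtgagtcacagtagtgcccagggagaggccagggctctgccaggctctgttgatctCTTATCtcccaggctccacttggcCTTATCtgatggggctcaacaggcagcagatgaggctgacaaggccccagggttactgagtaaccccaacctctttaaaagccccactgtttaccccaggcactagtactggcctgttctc
Guca2b: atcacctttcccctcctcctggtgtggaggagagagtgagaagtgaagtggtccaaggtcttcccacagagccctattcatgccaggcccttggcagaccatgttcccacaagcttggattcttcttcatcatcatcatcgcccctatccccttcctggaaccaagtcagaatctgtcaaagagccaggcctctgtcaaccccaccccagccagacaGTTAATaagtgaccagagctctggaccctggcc
Guca2a held GATAAG on the opposite strand at both marked places, beginning 145 and 121 bases before the start, and none of the other motifs. Guca2b held GTTAAT once, beginning 33 bases before the start, and none of the other motifs. GATAAG was found in 6.55% and GTTAAT in 6.43% of 32851 RefSeq promoter windows of the same length. No motif overlapped another in either window. Such matches describe letters and show no binding. Promoters were found for 7 of the 9 genes, without Slc12a2 and Clca6. Among the other 5, Slc26a3 held 2 GTTAAT and 1 TATAAA, while Slc9a3, Cftr, Atp1b1 and Slc26a6 held only GGGCGG, which 32.7% of windows hold.

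The receptor stood apart from its ligands. Gucy2c, which encodes guanylate cyclase C, had 44.1 units in wild type against 60.5 units in TLR4ΔIEC, a log2 ratio of 0.45. Guanylin thus had 22.9 times the coverage of its receptor in wild type and 15.7 times in TLR4ΔIEC. Downstream of cyclic GMP, the kinase gene Prkg2, named after its value was seen, was at 10.4 and 7.90 units, and the phosphodiesterase gene Pde5a was at 24.4 and 28.4 units. Of 6 genes of guanylin and cyclic GMP with at least 5 units, 0 differed by 2-fold. Their median was -0.02 and turned to above 0 under all 5 other scalings.

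Further genes of salt and water transport were taken from 7 lists, which include the members. Outside the 9 genes, 58 list genes had at least 5 units, of which 3 (5.17%) were past 2-fold on the lower side and 1 (1.72%) on the higher side, with a median log2 ratio of 0.09. The higher one was Clca4. The lower ones were Sgk1, Slc34a2 and Aqp7. Sgk1, a kinase induced by steroids and stress that promotes sodium transport, was at 61.2 units in wild type against 18.1 units in TLR4ΔIEC, a log2 ratio of -1.71. Slc34a2, the brush border sodium/phosphate cotransporter of the ileum, was at 109 and 49.8 units, a log2 ratio of -1.11. Aqp7, a channel for water and glycerol, was at 9.98 and 2.47 units, a log2 ratio of -1.66.

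**Figure D3:**
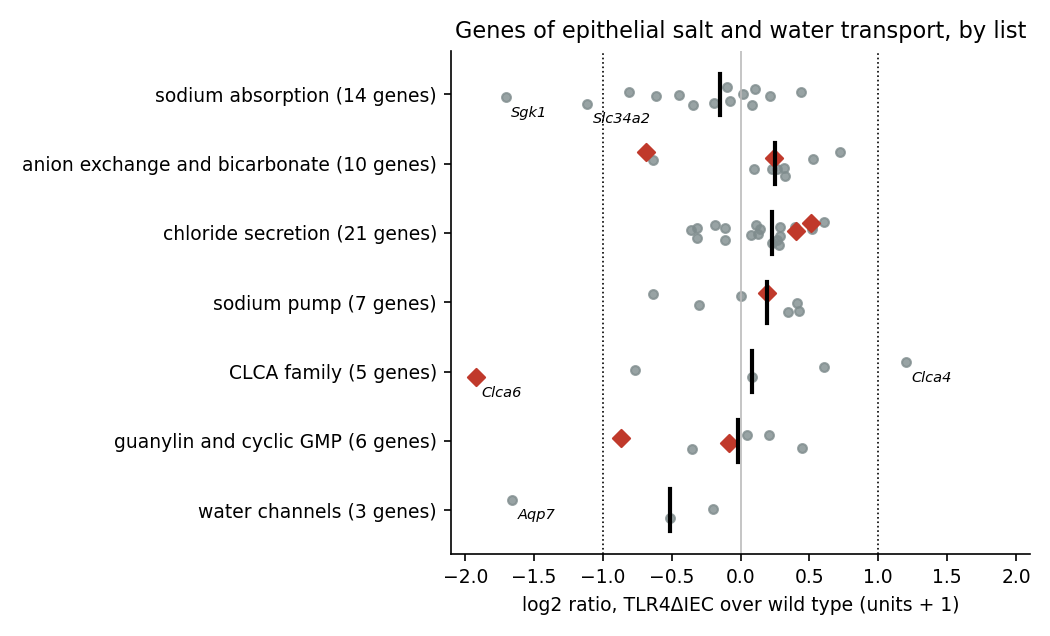
Log2 ratio of TLR4ΔIEC over wild type for each list gene averaging at least 5 units, 1 point per gene; red diamonds are members, black bars are list medians and dotted lines mark 2-fold. The named points past 2-fold are Sgk1, Slc34a2, Clca6, Clca4 and Aqp7.

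In the sodium absorption list, 9 of 14 genes were below 0 (47.4% of all genes were) and 2 at least 2-fold lower, with a median of -0.15. Beside Sgk1 and Slc34a2 these included scaffold genes that hold NHE3 in the brush border. Slc9a3r1, which encodes NHERF1, was at 375 units in wild type against 214 units in TLR4ΔIEC (log2 ratio -0.81), and Pdzd3 was at 30.4 and 19.5 units (-0.61). These anchors of the exchanger lay below 0, while the weakly covered Slc9a3 lay above it. Slc9a2 and Nedd4l, both near 0, changed sign under 1 of 5 other scalings.

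In the anion exchange and bicarbonate list, 8 of 10 genes were above 0 (52.6% of all genes were) and 0 differed by 2-fold, with a median of 0.25. The genes below 0 were Slc26a6 and Slc4a2, the basolateral anion exchanger AE2, at 33.1 units in wild type against 20.9 units in TLR4ΔIEC (log2 ratio -0.64). The sulphate transporter gene Slc26a2 was at 43.8 and 52.8 units (0.26). The largest ratio of the list was that of the carbonic anhydrase gene Car9 (0.72, from 5.88 and 10.3 units), and the bicarbonate cotransporter gene Slc4a4 was at 0.53 (15.5 and 22.7 units), both named after their values were seen.

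In the chloride secretion list, 15 of 21 genes were above 0 and 0 differed by 2-fold, with a median of 0.23. Kcne3, the subunit of the basolateral potassium channel that sustains chloride secretion, was at 32.8 units in wild type against 47.5 units in TLR4ΔIEC (log2 ratio 0.52). The chloride channel gene Clcn2 was at 34.1 and 27.2 units (-0.32), and Clic5 was at 57.9 and 69.8 units (0.26). For comparison, 52.6% of all genes at this level were above 0. In the sodium pump list 0 of 7 genes differed by 2-fold (median 0.19), and the regulator gene Fxyd3 was at -0.30. Of 3 water channel genes, 1 was at least 2-fold lower (median -0.51). Aqp11 was at 29.7 and 20.5 units (-0.51) and Aqp1 at 91.5 and 79.5 units (-0.20).

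Markers of the cells that carry these genes differed between the columns too. In bulk tissue, fewer cells of a type and less RNA per cell cannot be told apart. Beside the counts of these and the following lists stand the shares of all genes with at least 5 units. Of those genes 47.4% were below 0, 52.6% above 0 and 2.79% at least 2-fold lower. Villus enterocyte genes were below 0 for 10 of 11 (median -0.49, 2 at least 2-fold lower), and their summed level was 7197 units in wild type and 4442 in TLR4ΔIEC. Their most abundant members were Fabp2 (3942 and 1750 units) and Anpep (1237 and 1130 units). Crypt stem and progenitor genes were above 0 for 6 of 7 (median 0.57), with sums of 280.2 and 418 units, led by Olfm4 (133 and 224 units) and Mki67 (45.5 and 50.2 units). Goblet cell genes were below 0 for 6 of 9 (median -0.28; sums 16244 and 12194), led by Zg16 (8567 and 5187 units) and Spink4 (2238 and 2854 units), which lay on opposite sides of 0. Enteroendocrine genes were below 0 for 5 of 6, with a median of -1.06. They summed to 662 and 262 units, led by Sct (411 and 121 units) and Gcg (61.4 and 61.5 units). These shifts stand beside the low values of Clca6, Guca2b and Slc26a6 and the higher values of Cftr and Slc12a2, and their part in them was not tested.

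Genes of the epithelium as a whole had a median log2 ratio of -0.07 over 10 genes, led by Krt8 (2528 and 2285 units) and Epcam (1001 and 757 units). They went both ways, with 6 below 0 and 4 above, from -0.74 for Elf3 to 0.43 for Krt19, named as the ends of the range. Taken relative to that median, Clca6 was at -1.86, Guca2b at -0.80, Slc26a6 at -0.62, Slc12a2 at 0.47 and Cftr at 0.58. All 9 genes kept their sign, but with a median this near 0 that outcome says nothing about the part of the epithelium. Adipocyte genes were below 0 for 4 of 4 (sums 65.4 and 20.9 units), with Car3 at 22.0 and 6.85 units and Cidec at 18.3 and 6.05 units. Fat cells also express Aqp7, and the part of fat in its value was not tested. Immediate early genes, a list added after the values were seen, were below 0 for 8 of 8 (median -0.86; sums 349.9 and 169 units). They were led by Junb (99.0 and 34.2 units), and their part in the low value of Sgk1, itself a quickly inducible gene, was not tested.

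**Figure D4:**
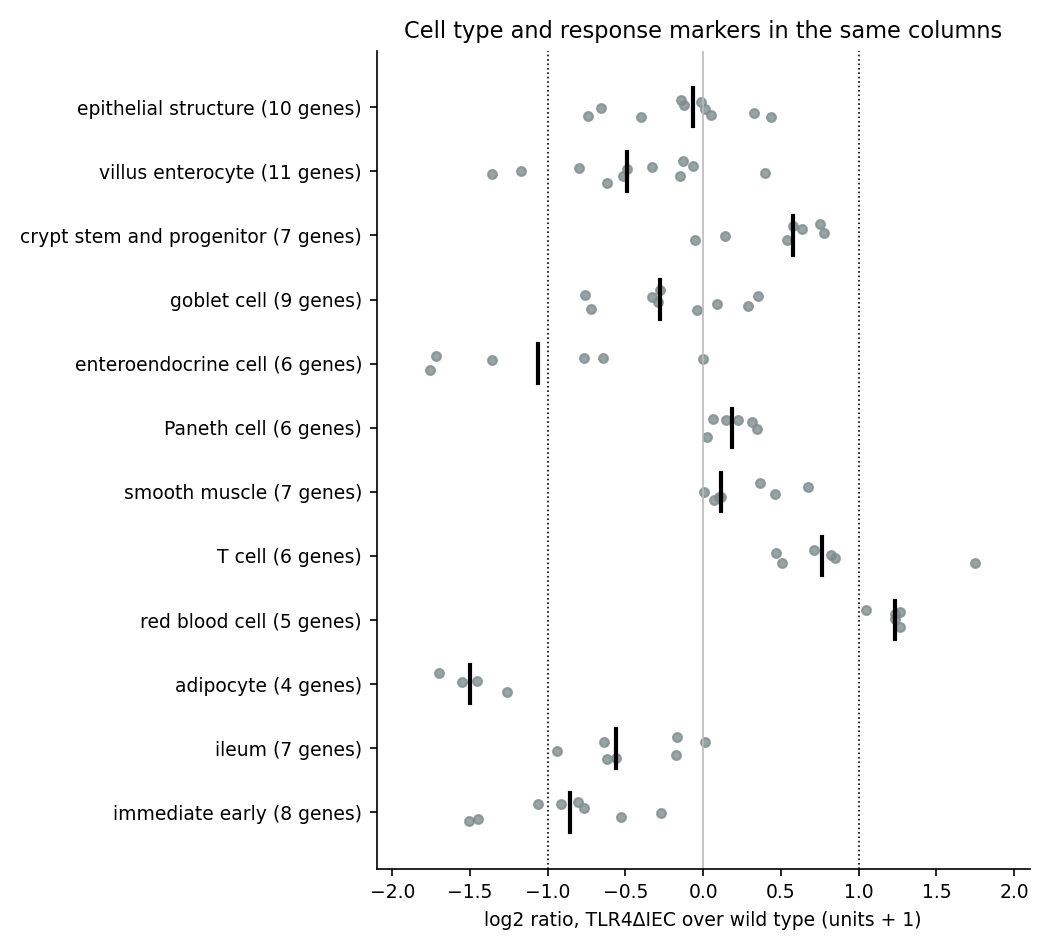
Log2 ratio of TLR4ΔIEC over wild type for marker genes averaging 5 units or more, 1 point per gene, for lists with at least 4 such genes; black bars are medians and dotted lines mark 2-fold. Villus enterocyte (-0.49) and enteroendocrine (-1.06) medians lie below 0, and the crypt median (0.57) lies above it.

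The remaining lists describe the tissue. Ileum genes were strong in both columns, led by Fabp6 (15350 and 13628 units) and Slc51b (637 and 565 units), with sums of 16647 and 14662 units. Of these genes 6 of 7 were below 0, with a median of -0.56, and the part of such a shift in the values of the 9 genes was not tested. Genes of the proximal small intestine summed to 11.9 and 17.4 units, led by Slc40a1 (9.93 and 14.6, log2 ratio 0.51) and Cybrd1 (0.95 and 2.22). Of the colon list, Car1 was at 0.14 and 0.176 units, although B4galnt2 (97.7 and 115 units) was well covered; the whole list summed to 104 and 123 units. T cell genes were above 0 for 6 of 6, with a median of 0.77 and sums of 106 and 276 units. They were led by Gzma (57.6 and 196 units) and Cd3g (16.5 and 30.6 units), and most of the difference between the sums came from Gzma. The sums also hold Cd2, named after its value was seen, which had a mean of 4.83 units and a log2 ratio of -0.12. Red blood cell genes were at least 2-fold higher for 5 of 5 (1.29% of all genes were), with a median of 1.23 and sums of 215 and 502 units. The part of such shifts in the values of the 9 genes was not tested. Paneth cell genes had a median of 0.19 and smooth muscle genes of 0.11, all above 0. No tuft cell gene reached 5 units. Tlr4 itself, measured over the whole transcript in whole tissue, was at 2.90 units in wild type against 2.24 units in TLR4ΔIEC, a check of the labels that is weak because the deleted part was not isolated.

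**Figure D5:**
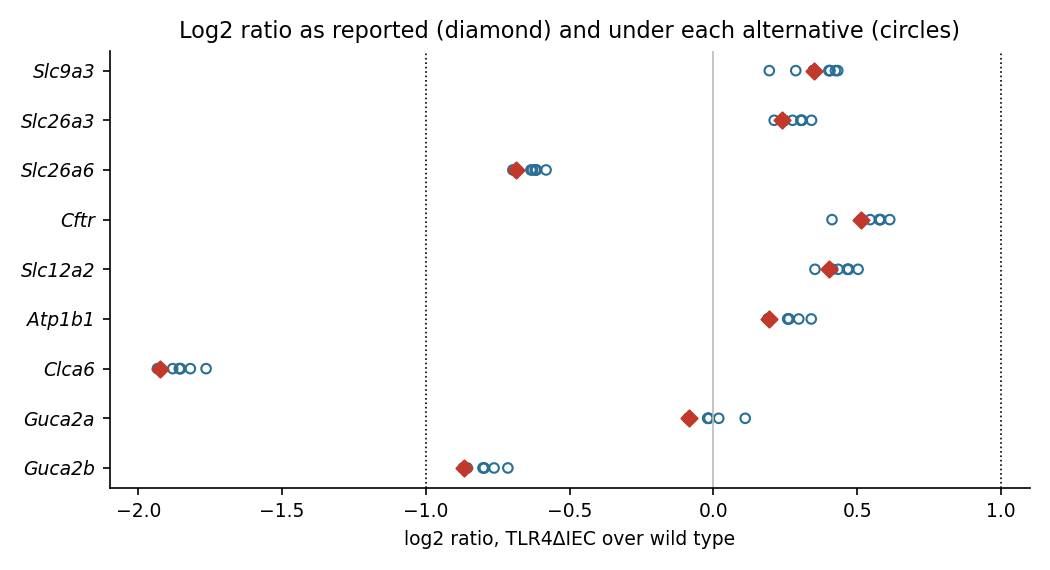
Log2 ratio of TLR4ΔIEC over wild type for each of the 9 genes as reported (diamonds) and under each other setting that gives a value (circles); dotted lines mark 2-fold. Clca6 stays beyond -1 and Guca2a lies on both sides of 0.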

How the data were processed

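Per the labels, ileum was snap frozen, total RNA was depleted of ribosomal RNA and fragmented with RNase III, and strand-specific Ion Torrent libraries were prepared. The submitters' processing notes list build mm10, TopHat2 2.0.10 and Bowtie2 2.1.0 without saying what each did. The deposited signal is, per the file headers, a mean coverage for every RefSeq entry, in 1 column for the 3 mice of each genotype, and the tool behind it is not given in the sources used here. In all, the wild type column listed 22724 entries summing to 699800, and the TLR4ΔIEC column 22687 entries summing to 698473. The read length is not given, so coverage was not turned into counts, and the precision it gives is unknown.

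Entries in both columns (22001) were reduced to 21950 symbols by keeping the entry with the highest mean. The columns were scaled by the median of ratios (factor 1.05), log2 ratios were taken with a pseudocount of 1, and only genes averaging at least 5 units were counted. The lengths behind averages were recovered as the smallest whole number of bases, up to 20000, that turns the coverage into whole bases (relative tolerance 1e-12). The true length can be a multiple of it. For Slc9a3 and Cftr the largest multiple that about fits the annotated transcript was taken. The steps were tested on simulated data. Coordinates follow GENCODE vM21 on GRCm38, which is mm10. Named genes were the 9 members, every list gene past 2-fold, up to 4 genes per list with the largest absolute ratio among those of at least 20 units, and up to 2 per marker list by level; any other is marked, and 2 list genes named by this rule are not reported here. Members and lists were chosen with earlier results of these data known. The 12 other settings covered scaling, pseudocount, filter, entries of a symbol and recovered length. Python 3.11.15 was used with numpy 2.4.6 and pandas 2.3.3.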

Additional observations from a re-analysis of the deposited data

How the results depend on the processing

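Of the 9 genes, 8 kept their sign under every other setting that gives a value, and Guca2a did not (lowest -0.09, highest 0.11). For single genes this rests on the scaling, pseudocount and entry settings, since filter and length settings cannot move a ratio. Slc9a3 and Cftr have no value among genes with 1 recoverable length in both columns. The number of members at least 2-fold lower stayed at 1 under the 12 other settings and became 3 at 1.5-fold. The median over members turned to -0.09 with a filter at 20 units or with genes of 1 recoverable length only, so it has no stable sign. The numbers of all genes at least 2-fold lower and higher, 248 and 115 as reported, became 146 and 65 at a pseudocount of 5, 395 and 222 without a filter, 380 and 206 with a filter at 1 unit and 130 and 58 with a filter at 20 units. At 1.5-fold, added after the data were seen, they were 905 and 584 of 8891 genes (10.2% and 6.57%). That size also gave 4 lower genes of 14 in the sodium absorption list, and 2 lower and 1 higher of 10 in the anion exchange list. Of 21 chloride secretion genes 1 was higher, and of 7 sodium pump genes 1 was lower. Of 5 CLCA genes 2 were lower and 2 higher, and of 6 guanylin genes 1 was lower. These small counts were not tested against the shares of all genes. With a filter at 20 units, 0 water channel genes were at least 2-fold lower, since Aqp7 is then left out. The CLCA median was -0.34 with that filter. No paired analysis was possible because each genotype has 1 pooled column and the mice share no replicate numbers; for the same reason no mouse could be left out. Pooling and the unknown read length are the main limits.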

Other observations

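The surroundings of the guanylin genes on chromosome 4 were looked at after the values were seen. Within 200000 bases of either gene, 4 other genes were listed in both columns. Foxj3, a transcription factor gene 8585 bases from Guca2a, had 7.96 units in wild type against 6.85 units in TLR4ΔIEC, a log2 ratio of -0.19. Zmynd12, Rimkla and Hivep3 were each below 1 unit in both columns. Guca2a and Guca2b were thus the only strongly covered genes in that window, and they differed from each other in ratio (-0.09 and -0.87).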
